A study of Mus musculus with 24 samples.

Results

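The 10 genes described here encode feedback regulators of receptor kinase signalling: the Sprouty proteins Spry1, Spry2 and Spry4, the Spred proteins Spred1 and Spred2, the MAP kinase phosphatases Dusp4, Dusp5 and Dusp6, and the ETS transcription factors Etv4 and Etv5. They were taken by symbol, through their Ensembl identifiers, from a deposited table of 45318 Ensembl genes. Each had exactly 1 row, and all 10 passed the filter on low counts in every comparison. Libraries came from Lys-GFP-ER-HoxA9 cells of strain C57Bl/6, a mouse myeloid progenitor line in which the homeobox protein HoxA9 is fused to an oestrogen receptor domain, with GFP at the lysozyme gene as a reporter. All cells were grown in medium with serum, Stem Cell Factor (the ligand of the receptor kinase Kit) and 0.5 uM beta-estradiol. In 4 libraries the cells had been treated with R07, a compound given only by its code, for 12, 36, 72 and 120 h, with 1 library a time. In the other 20 libraries estradiol had been taken away for 0, 4, 8, 12, 24, 36, 48, 72, 96 and 120 h, with 2 libraries a time, written here with their time, as 0 h A and 0 h B. The labels carry the same withdrawal protocol for the R07 libraries, so whether estradiol was present during R07 treatment is not known. They do not say whether the replicates were separate cultures or whether the line is 1 clone. The p-values below therefore measure the spread between these libraries, which may be technical.

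A ligand-bound receptor kinase such as Kit recruits adaptors that activate RAS, and RAS starts a chain of kinases that ends in ERK. ERK enters the nucleus and, among other targets, induces genes whose products damp the pathway. Sprouty and Spred proteins act near the membrane between the receptor and RAF, Spred proteins by bringing the RAS-inactivating protein neurofibromin to the membrane, while dual-specificity phosphatases remove phosphate from ERK and related kinases. Etv4 and Etv5 belong to the PEA3 subfamily of ETS factors, which carry the response to the nucleus and are induced in many tissues together with Sprouty and Dusp6 transcripts. Transcript levels of this group are often used as a readout of ERK output, but no ERK activity was measured here.

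On GRCm38 the annotation places Spry1 at chr3:37639947-37644598 (plus strand), Spry2 at chr14:105891947-105896819 (minus strand), Spred1 at chr2:117121374-117182279 (plus strand) and Spred2 at chr11:19924375-20024026 (plus strand). It places Dusp4 at chr8:34807297-34819894 (plus strand), Dusp5 at chr19:53529109-53542431 (plus strand), Dusp6 at chr10:99263231-99267489 (plus strand), Etv4 at chr11:101769742-101785371 (minus strand) and Etv5 at chr16:22381309-22439719 (minus strand).

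The promoters of 4 members are shown because their transcripts took the courses that the results turn on. Dusp5 was the only member called higher than at 0 h during withdrawal, and Dusp6 had the highest level at 0 h. Spred1 and Etv5 had nearly the same course. Each is the 250 bases before the RefSeq transcription start (GRCm38.p6), written 5′ to 3′ on the gene's strand, at chr19:53528895-53529144 on the plus strand for Dusp5, chr10:99262981-99263230 on the plus strand for Dusp6, chr2:117120821-117121070 on the plus strand for Spred1, and chr16:22439571-22439820 on the minus strand for the first of the Etv5 starts. Capitals mark matches to the motifs searched.
Dusp5: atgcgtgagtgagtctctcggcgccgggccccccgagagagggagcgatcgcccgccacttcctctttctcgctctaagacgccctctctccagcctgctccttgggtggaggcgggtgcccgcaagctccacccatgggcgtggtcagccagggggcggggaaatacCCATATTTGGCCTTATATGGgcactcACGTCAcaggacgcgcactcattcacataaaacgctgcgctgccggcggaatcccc
Dusp6: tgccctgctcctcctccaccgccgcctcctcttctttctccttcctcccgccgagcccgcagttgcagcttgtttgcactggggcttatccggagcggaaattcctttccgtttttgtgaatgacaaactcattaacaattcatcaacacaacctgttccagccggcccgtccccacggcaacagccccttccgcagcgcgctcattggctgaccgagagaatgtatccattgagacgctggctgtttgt
Spred1: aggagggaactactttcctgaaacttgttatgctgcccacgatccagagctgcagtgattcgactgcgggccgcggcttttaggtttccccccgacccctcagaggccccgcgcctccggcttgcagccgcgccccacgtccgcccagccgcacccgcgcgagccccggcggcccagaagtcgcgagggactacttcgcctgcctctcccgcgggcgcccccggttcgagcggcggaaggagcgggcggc
Etv5: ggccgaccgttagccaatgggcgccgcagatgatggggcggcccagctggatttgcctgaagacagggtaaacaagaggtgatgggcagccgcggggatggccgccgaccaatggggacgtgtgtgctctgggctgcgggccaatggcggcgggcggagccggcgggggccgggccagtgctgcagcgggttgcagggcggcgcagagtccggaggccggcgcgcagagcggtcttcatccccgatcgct

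RefSeq promoter windows were matched for 7 of the 10 members, in 8 windows of 300 bases since Etv5 has several starts. Each window was searched on both strands for CCGGAAG, an ETS core with its preferred flank, while the core alone was not searched for. The other motifs were the cyclic AMP response element TGACGTCA, its shortened form TGACGT and the AP-1 site TGAGTCA. The CArG box, the element bound by serum response factor, was searched for as well. The Dusp5 window held a pair of adjoining CArG boxes, starting 82 and 72 bases before the start, and a TGACGT on the minus strand that begins 56 bases before it. A CArG box was in 1 of the 8 member windows and in 1.63% of all 32851 promoter windows. TGACGT was in the windows of Dusp5 and Spred2 and in 7.51% of all windows. CCGGAAG, TGACGTCA and TGAGTCA were in 0 of the 8 windows, against 8.86, 1.79 and 5.2% of all windows. These are matches of letters only, and no binding was measured.

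The libraries held 36661334 to 49601719 counts in genes, which were 82.7 to 85.7% of the reads counted. The 6 progenitor markers (Kit, Cd34, Flt3, Myb, Hoxa9 and Meis1) summed to 5258 to 5639 CPM in R07 libraries. During withdrawal they summed to 5018 to 5020 CPM at 0 h, 1343 to 1366 CPM at 72 h and 395 to 434 CPM at 120 h. Within this sum Hoxa9 went the other way, with means of 141 CPM at 0 h, 417 at 72 h, 616 at 96 h and 294 at 120 h. Kit, Cd34, Flt3, Myb and Meis1 were lower at 72, 96 and 120 h than at 0 h. The 6 neutrophil markers (Ltf, Camp, Ngp, S100a8, S100a9 and Mmp8) summed to 14.7 to 135 CPM in R07 libraries, and during withdrawal to 8.49 to 9.77 CPM at 0 h, 24505 to 31009 CPM at 96 h and 18028 to 24127 CPM at 120 h. The 6 monocyte and macrophage markers, among them Csf1r, Cd68, Adgre1, C1qa and C1qb, summed to 16.6 to 104 CPM with R07, and during withdrawal to 6.78 to 6.79 CPM at 0 h, 540 to 636 CPM at 72 h, 1478 to 2193 CPM at 96 h and 4232 to 4336 CPM at 120 h. Of these, C1qa was at 0 at 0 h. The 5 eosinophil markers (Prg2, Epx, Ear2, Siglecf and Ccr3) summed to 84.2 to 224 CPM with R07, and during withdrawal to 28.8 to 29.1 CPM at 0 h, 1416 to 1791 CPM at 48 h, 1566 to 1694 CPM at 72 h and 155 to 179 CPM at 120 h. At 72 h Prg2 alone had a mean of 1415 CPM. The 5 mast cell and basophil markers (Cpa3, Mcpt8, Fcer1a, Hdc and Ms4a2) summed to 361 to 1215 CPM with R07, and during withdrawal to 244 to 289 CPM at 0 h and 33.6 to 38.1 CPM at 120 h. They did not move together with R07. Cpa3 had a mean of 191 CPM at 0 h and 289 to 1053 CPM with R07, and Hdc 11.1 and 4.81 to 136 CPM. Mcpt8 had 64.1 CPM at 0 h and 18.5 to 58.9 CPM with R07, and Ms4a2 1.16 and 0.397 to 1.19 CPM. Fcer1a was at 0 in both. The 5 T cell markers summed to at most 1.99 CPM and the 5 fibroblast markers to at most 6.91 CPM, with Col1a1 at 5.92 CPM at 96 h, while Cd3e, Cd8a, Col3a1, Dcn and Lum were at 0 at 0, 72, 96 and 120 h and with R07. In such bulk libraries fewer cells of a type and less RNA per cell cannot be told apart.

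Levels are CPM, a gene's reads relative to a library size scaled by TMM, and changes are log2 values from edgeR's quasi-likelihood test. A gene was called when its Benjamini-Hochberg adjusted p over all genes tested was under 0.05. At 0 h, Dusp6 led the group with 50.1 CPM per kilobase of exon, followed by Spred1 with 22.3, Spred2 with 19.5, Etv5 with 15.4 and Spry4 with 10.2 CPM per kilobase. Spry2 had 7.48, Dusp5 5.90, Etv4 5.61, Dusp4 4.43 and Spry1 3.60 CPM per kilobase. All 10 members differed over the 10 withdrawal times by the F test in edgeR, as did 91.1% of 14615 genes.

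**Figure D1:**
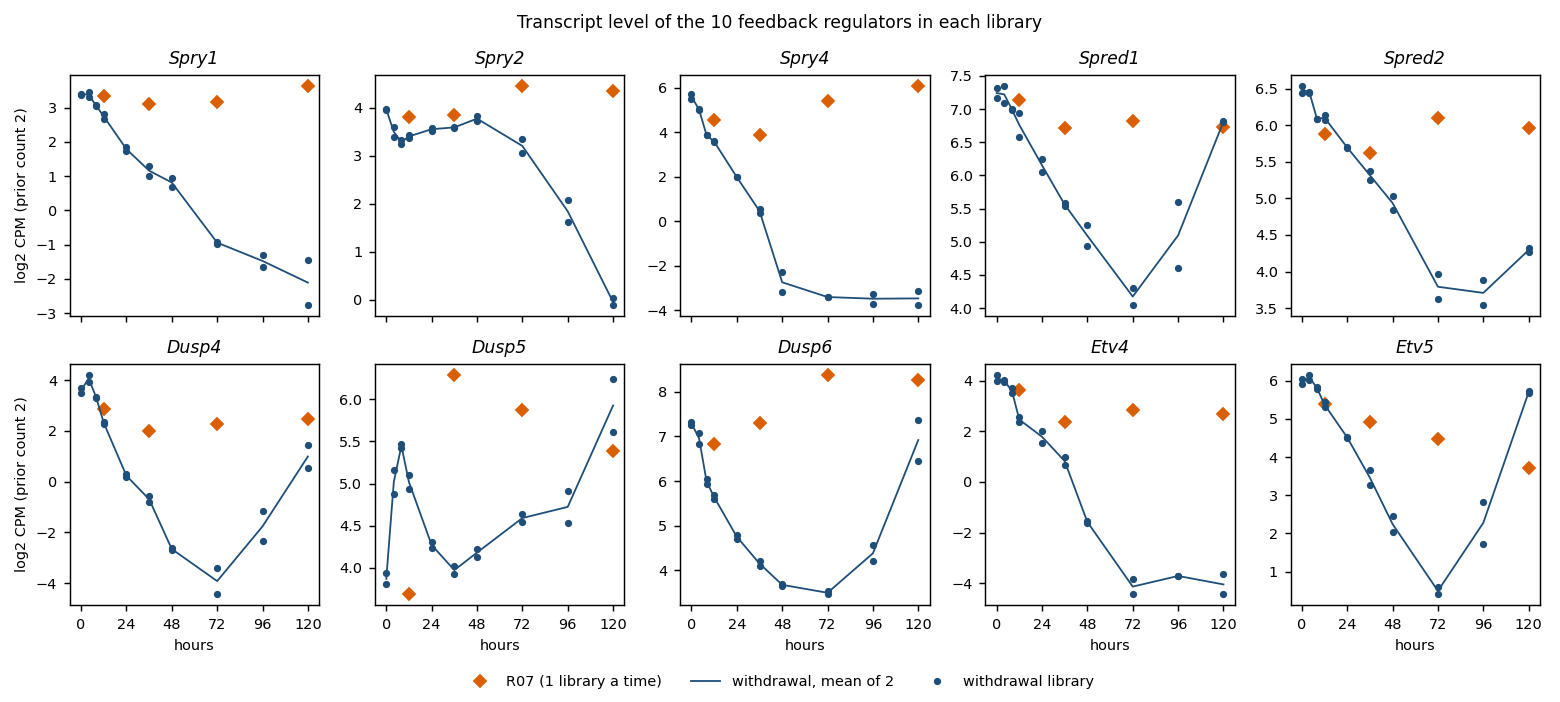
Level of each member in every library, as log2 CPM with a prior count of 2 (vertical axis, its own scale in each panel) against hours (horizontal axis). Diamonds are R07 libraries, circles are withdrawal libraries and the line joins the mean of 2. Spry1, Spry4 and Etv4 ran down to the lowest levels during withdrawal and stayed there, Spred1, Dusp4, Dusp6 and Etv5 turned up again after 72 h, and Dusp5 peaked at 8 h and again at 120 h.

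Withdrawal of estradiol was followed by a fall of 9 of the 10 transcripts, in an order that ran over days, while Dusp5 rose. Against 0 h, 1 member was higher and 2 were lower at 4 h, 1 and 5 at 8 h, and 1 and 8 at 12 h. At 24 h and at 36 h, 0 were higher and 9 were lower, and at 48 h 0 and 8. At 72 h and at 96 h all 10 differed, with 1 higher and 9 lower, and at 120 h 1 was higher and 6 were lower. Of all 14615 genes, 7.22% were higher and 4.53% lower at 4 h, 12.9% and 8.99% at 8 h, 9.20% and 6.81% at 12 h, 13.5% and 14.4% at 24 h, and 20.6% and 20.3% at 36 h. The higher and lower shares of all genes were 25.8% and 26.8% at 48 h, 34.9% and 34.7% at 72 h, 38.7% and 38.6% at 96 h, and 39.6% and 40.3% at 120 h. The members' lower calls thus stood furthest above the background between 12 and 36 h. The members' median log2 change against 0 h was -0.01 at 4 h, -0.37 at 8 h, -0.64 at 12 h, -1.55 at 24 h, -2.39 at 36 h, -3.12 at 48 h, -4.14 at 72 h, -3.27 at 96 h and -2.37 at 120 h. The median over all genes stayed between -0.06 and 0.01 at these times. The members were listed with earlier results of these data known, so these counts are a description.

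**Figure D2:**
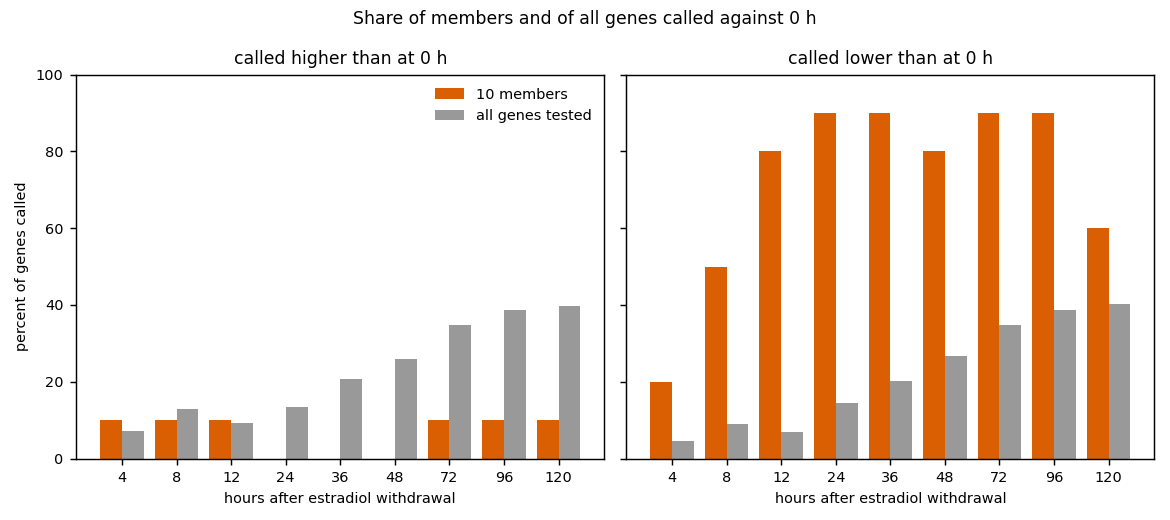
Percent of the 10 members and of all 14615 genes tested that were called higher (left) or lower (right) than at 0 h (vertical axes) at each withdrawal time in hours (horizontal axes). The members' bars for lower calls stand at 80% at 12 h and 90% at 24 h, against 6.81 and 14.4% of all genes. At 120 h the members' bar is down to 60%, against 40.3%.

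Spry4, which blocks growth factor signals to ERK and is among the most responsive Sprouty genes, fell within 4 h and came close to 0. It had 52.1 and 45.4 CPM at 0 h, 31.6 and 33.1 at 4 h, 14.5 and 14.6 at 8 h, 11.7 and 12.0 at 12 h, 3.87 and 3.94 at 24 h and 1.25 and 1.41 at 36 h. From 48 h on the levels were 0.0639 and 0.158 CPM at 48 h, 0.0491 and 0.0485 at 72 h, 0.0306 and 0.0596 at 96 h and 0.0269 and 0.0671 at 120 h. Up to 72 h each later pair of libraries lay wholly below the earlier one. The log2 change against 0 h was -0.56 ± 0.11 (SE) at 4 h (adjusted p = 0.0015) and -1.74 ± 0.12 at 8 h (adjusted p = 2.6e-09). From 72 h on each library held 1 or 2 Spry4 reads. The 3 reads at 120 h, of both libraries together, corresponded to 0.0927% of the 0 h level, with an exact 95% interval of 0.0191 to 0.271% that covers counting error only.

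Spry1, another inhibitor of the same signals, fell later. It had 10.5 and 10.4 CPM at 0 h, 9.82 and 10.9 at 4 h, 8.16 and 8.35 at 8 h, 6.96 and 6.33 at 12 h, 3.54 and 3.27 at 24 h and 1.98 and 2.42 at 36 h. Later it had 1.55 and 1.88 CPM at 48 h, 0.466 and 0.485 at 72 h, 0.276 and 0.357 at 96 h and 0.323 and 0.101 at 120 h. The 4 h libraries enclosed those at 0 h, and all later libraries lay below. The first call came at 12 h with a log2 change of -0.66 ± 0.15 (adjusted p = 0.0040), which was lost without 12 h B (adjusted p = 0.056), and the change reached -5.50 ± 0.25 at 120 h (adjusted p = 3.9e-14). Exons of Spry1 overlap those of Gm42922 on the other strand. The strand setting of the counting is not given in the sources used here, so reads of that partner cannot be told apart from those of Spry1.

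Spry2 took a course of its own. It had 15.7 and 15.5 CPM at 0 h, 10.5 and 12.1 at 4 h, 9.50 and 9.94 at 8 h, 10.8 and 10.3 at 12 h, 12.0 and 11.5 at 24 h and 12.1 and 12.0 at 36 h. Later levels were 13.1 and 14.2 CPM at 48 h, 8.27 and 10.2 at 72 h, 3.003 and 4.17 at 96 h and 0.970 and 0.872 at 120 h. The transcript dipped within 8 h, came back to near its starting level by 48 h and was then almost lost. Against 0 h the log2 change was -0.68 ± 0.13 at 8 h (adjusted p = 0.00085), -0.20 ± 0.13 at 48 h, which was not called (adjusted p = 0.20), and -4.04 ± 0.18 at 120 h (adjusted p = 2.2e-14). The smaller changes at 4, 24 and 36 h (-0.44, -0.43 and -0.39) were called, but each lost its call when either 0 h library was left out. Omitting A or B of 0 h gave adjusted p = 0.11 and 0.12 at 4 h, 0.082 and 0.058 at 24 h, and 0.082 and 0.067 at 36 h. Omitting a library of the later time also ended these calls, with adjusted p = 0.25 for 4 h A, 0.059 and 0.14 for 24 h A and B, and 0.080 and 0.095 for 36 h A and B. The 4 h call was also absent in a fit of those 4 libraries alone (adjusted p = 0.062).

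The Spred genes were first called lower at 8 h or later. Spred1 had 143 and 159.9 CPM at 0 h, 136 and 164 at 4 h, 127 and 129 at 8 h, 123 and 95.6 at 12 h, 75.9 and 66.6 at 24 h and 46.5 and 47.8 at 36 h. From 48 h on it had 30.5 and 38.0 CPM at 48 h, 16.4 and 19.8 at 72 h, 48.2 and 24.2 at 96 h and 111 and 113 at 120 h. It was lowest at 72 h and by 120 h had come back to 74.0% of its 0 h mean, below both 0 h libraries. Against 0 h it was first called at 24 h, with a log2 change of -1.10 ± 0.20 (adjusted p = 0.00023), and reached -3.09 ± 0.22 at 72 h (adjusted p = 9.3e-11). The changes at 12 h (-0.48, adjusted p = 0.11) and 120 h (-0.40, adjusted p = 0.065) were not called, but both were called lower when either 96 h library, whose Spred1 levels differ 2.00-fold, was left out. Omitting A or B of 96 h gave adjusted p = 0.011 and 0.0094 at 12 h, and 0.0087 and 0.0057 at 120 h. Both were also called when those 4 libraries alone were fitted (adjusted p = 0.0017 and 0.00084) and with no filter on low counts (adjusted p = 0.00049 and 0.00022).

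Spred2 had 93.1 and 86.9 CPM at 0 h, 87.7 and 86.7 at 4 h, 68.1 and 67.6 at 8 h, 70.3 and 66.9 at 12 h, 51.3 and 52.1 at 24 h and 38.1 and 41.5 at 36 h. Thereafter it had 28.5 and 32.8 CPM at 48 h, 12.2 and 15.6 at 72 h, 14.7 and 11.6 at 96 h and 19.9 and 19.2 at 120 h. Its replicates lay close together, and it was still far below its 0 h libraries at 120 h. Its log2 change was -2.71 ± 0.12 at 72 h (adjusted p = 7.1e-14) and -2.17 ± 0.12 at 120 h (adjusted p = 5.9e-13). The early calls at 8 and 12 h (each -0.40) each lost significance without 1 library, the 8 h call without 0 h A, 8 h A or 8 h B (adjusted p = 0.081, 0.092 and 0.075), the 12 h call without 0 h A or 12 h B (adjusted p = 0.11 and 0.12).

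Among the phosphatases, Dusp6, which is cytoplasmic and prefers ERK, had 152 and 161 CPM at 0 h, 114 and 136 at 4 h, 61.5 and 65.6 at 8 h, 51.7 and 48.0 at 12 h, 26.1 and 27.6 at 24 h and 17.1 and 18.4 at 36 h. Its later levels were 12.5 and 13.0 CPM at 48 h, 10.9 and 11.5 at 72 h, 23.5 and 18.4 at 96 h and 167 and 88.0 at 120 h. The fall was under way by 8 h, with a log2 change of -1.30 ± 0.18 (adjusted p = 3.3e-05), and ended at 72 h with -3.82 ± 0.21 (adjusted p = 1.6e-12). At 120 h the pair of libraries lay on both sides of the 0 h pair, and the change of -0.27 ± 0.18 was not called (adjusted p = 0.18). On omitting 120 h A it was -0.78 and called (adjusted p = 3.5e-05), and without 120 h B it was 0.14, so its direction rests on which library is read. The 4 libraries fitted alone gave -0.28 (adjusted p = 0.024), and leaving off the filter on low counts gave -0.31 (adjusted p = 0.016), both called.

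Dusp4, a nuclear phosphatase, had 12.9 and 11.3 CPM at 0 h, 18.6 and 15.01 at 4 h, 10.0 and 9.82 at 8 h, 5.08 and 4.78 at 12 h, 1.18 and 1.08 at 24 h and 0.527 and 0.621 at 36 h. Subsequent levels were 0.107 and 0.119 CPM at 48 h, 0.0491 and 0 at 72 h, 0.398 and 0.149 at 96 h and 1.40 and 2.68 at 120 h. Both 4 h libraries lay above both 0 h libraries, but the log2 change of 0.50 ± 0.19 was not called (adjusted p = 0.097). It was called when 120 h A or B was left out (adjusted p = 0.048 and 0.049) or no filter on low counts was used (adjusted p = 0.023). Dusp4 then fell by 3.44 on the log2 scale at 24 h (adjusted p = 5.1e-10), and its 2 reads at 72 h corresponded to 0.202% of the 0 h level (exact 95% counting interval 0.0245 to 0.733%). At 120 h it was still lower than at 0 h by a log2 change of -2.57 ± 0.23 (adjusted p = 1.7e-09).

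Dusp5, a nuclear phosphatase that binds and inactivates ERK, was the exception. It had 15.3 and 13.9 CPM at 0 h, 35.8 and 29.5 at 4 h, 44.3 and 42.9 at 8 h, 34.2 and 30.6 at 12 h, 18.8 and 19.7 at 24 h and 15.2 and 16.2 at 36 h. Later it had 18.7 and 17.5 CPM at 48 h, 24.9 and 23.3 at 72 h, 30.0 and 23.2 at 96 h and 75.9 and 48.7 at 120 h. The transcript thus had an early peak, a trough at 36 h and a second climb, and no library from 4 h on except 36 h A fell as low as the higher 0 h library. The log2 change was 1.19 ± 0.16 at 4 h (adjusted p = 3.2e-05), 1.59 ± 0.16 at 8 h (adjusted p = 6.8e-07), 0.39 ± 0.16 at 24 h, which was not called (adjusted p = 0.083), 0.09 ± 0.16 at 36 h (adjusted p = 0.69) and 2.13 ± 0.16 at 120 h (adjusted p = 1.8e-10). The 24 h and 48 h changes (0.39 and 0.30) were called higher when a 120 h library was left out (for 24 h, adjusted p = 0.024 for A and 0.023 for B; for 48 h, 0.046 and 0.045). The 4 libraries fitted alone called them too (adjusted p = 0.0033 and 0.034), as did tests with no filter on low counts (adjusted p = 0.012 and 0.0497). Dusp5 exons overlap AC137853.2 on the other strand, whose reads cannot be told apart here. The promoter with the CArG pair shown above belongs to this gene.

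The ETS factors fell with different depth. Etv4 had 19.0 and 15.9 CPM at 0 h, 16.3 and 15.4 at 4 h, 13.1 and 11.4 at 8 h, 5.11 and 5.84 at 12 h, 2.90 and 4.01 at 24 h and 1.54 and 1.93 at 36 h. It then had 0.298 and 0.277 CPM at 48 h, 0.0245 and 0 at 72 h, 0.0306 and 0.0298 at 96 h and 0 and 0.0335 at 120 h. From 8 h on, every library lay below both at 0 h. Its log2 change was -1.68 ± 0.16 at 12 h (adjusted p = 2.3e-07), while the call at 8 h (-0.50) was lost on leaving out 0 h A, 8 h A or 8 h B (adjusted p = 0.18, 0.069 and 0.19). Each of the 6 libraries from 72 h on held 0 or 1 Etv4 read. The 1 read at 120 h corresponded to 0.0866% of the 0 h level, with an exact 95% counting interval of 0.00219 to 0.483%.

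Etv5 had 66.0 and 60.2 CPM at 0 h, 71.5 and 64.2 at 4 h, 57.1 and 54.8 at 8 h, 43.1 and 39.6 at 12 h, 23.0 and 22.5 at 24 h and 9.54 and 12.6 at 36 h. Levels after that were 4.05 and 5.45 CPM at 48 h, 1.28 and 1.46 at 72 h, 7.08 and 3.25 at 96 h and 50.9 and 52.7 at 120 h. It fell about as long as Etv4 but then returned, and both 120 h libraries lay below the 0 h libraries, at 82.1% of their mean. The log2 change against 0 h was -5.55 ± 0.25 at 72 h (adjusted p = 7.4e-14) and -0.25 ± 0.18 at 120 h, which was not called (adjusted p = 0.20), though a fit of those 4 libraries alone called it (adjusted p = 0.039), as did one with no filter on low counts (adjusted p = 0.035). Its first call, at 12 h (-0.62), was lost when 0 h A or B or 12 h A or B was left out (adjusted p = 0.12, 0.053, 0.057 and 0.15).

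**Figure D3:**
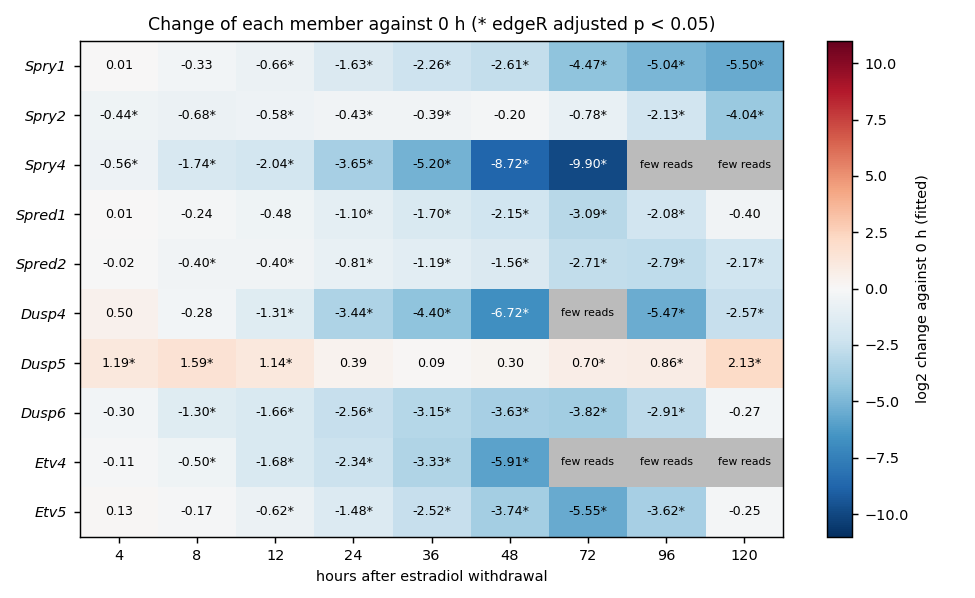
Fitted log2 change of each member (rows) against 0 h at each withdrawal time in hours (columns), blue for lower and red for higher, with an asterisk where edgeR's adjusted p was under 0.05. Grey cells had 3 or fewer reads in the 2 libraries together, and no fold is given there. Dusp5 is the row without a blue cell, with its highest value, 2.13, at 120 h.

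Comparison of neighbouring times showed when each member moved. From 4 to 8 h, 4 members were lower at the later time (Spry4, Spred2, Dusp4 and Dusp6) and 0 higher, and of all genes 5.04% were lower and 7.35% higher. From 8 to 12 h, 2 were lower (Dusp4 and Etv4) and 0 higher, against 5.46% and 3.75% of all genes. The broadest step was 12 to 24 h, in which 9 members were lower (all but Spry2) and 0 higher, against 11.5% and 8.01% of all genes. From 24 to 36 h, 5 were lower (Spry1, Spry4, Spred2, Etv4 and Etv5) and 0 higher, against 2.86% and 4.32%, and from 36 to 48 h, 5 were lower (Spry4, Spred2, Dusp4, Etv4 and Etv5) and 0 higher, against 5.01% and 7.73%. From 48 to 72 h, 6 were lower (Spry1, Spry2, Spred1, Spred2, Etv4 and Etv5) and 1 higher (Dusp5), against 21.8% and 22.2%.

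Several of these steps are small, and 1 library could decide a call. The count for 4 to 8 h was 2 with 4 h A, 8 h A or 8 h B left out. That for 8 to 12 h was 4 without either 120 h library. That for 24 to 36 h was 3 on omitting 24 h A, 2 on omitting 24 h B, 1 on omitting 36 h A and 3 on omitting 36 h B. That for 36 to 48 h was 3 without 36 h B. For 12 to 24 h it stayed between 6 and 9. The Dusp5 call from 48 to 72 h (log2 change 0.40, adjusted p = 0.0495) was lost when any of 14 libraries was left out, with adjusted p up to 0.21. Over the other steps Spry4 changed by -1.17 ± 0.11 from 4 to 8 h and by -3.53 ± 0.29 from 36 to 48 h, calls that held without each library in turn.

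After 72 h the group came apart. From 72 to 96 h, 4 members were higher at the later time and 1 was lower, where 27.2% and 26.5% of all genes were higher and lower. From 96 to 120 h, 6 were higher and 1 was lower, where 21.8% and 21.4% of all genes were. Etv5 rose by a log2 change of 1.92 ± 0.27 from 72 to 96 h (adjusted p = 6.9e-06) and of 3.37 ± 0.21 from 96 to 120 h (adjusted p = 7.8e-11). Spred1 rose by 1.01 ± 0.21 (adjusted p = 0.00042) and then 1.67 ± 0.21 (adjusted p = 1.2e-06), and Dusp6 by 0.91 ± 0.20 (adjusted p = 0.00074) and then 2.64 ± 0.20 (adjusted p = 8.5e-10). At 120 h the means of Etv5, Spred1 and Dusp6 were 82.1, 74.0 and 81.2% of their 0 h means.

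Dusp4 rose by 2.90 ± 0.39 from 96 to 120 h (adjusted p = 3.4e-06). It was also higher at 96 h than at 72 h (adjusted p = 0.0042), where it had 18 and 2 reads in the 2 libraries together, a call lost on omitting 72 h B (adjusted p = 0.054) or 96 h A (adjusted p = 0.10). Dusp5 rose by 1.27 ± 0.16 (adjusted p = 1.6e-06) and Spred2 by 0.62 ± 0.12 (adjusted p = 0.00034) in the last step, while their 72 to 96 h changes of 0.15 and -0.07 were not called (adjusted p = 0.44 and 0.64). Spry2 went the other way, with -1.35 ± 0.15 for 96 h against 72 h (adjusted p = 3.1e-07) and -1.92 ± 0.20 for 120 h against 96 h (adjusted p = 1.5e-07). Spry1, Spry4 and Etv4 were not called in either step and stayed at or below 0.357 CPM in all libraries of 96 and 120 h.

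The markers of mature myeloid cells moved over the same days. The summed monocyte and macrophage markers were 4232 to 4336 CPM at 120 h, against 540 to 636 CPM at 72 h. The summed eosinophil markers went the other way, with 155 to 179 CPM at 120 h, against 1566 to 1694 CPM at 72 h. Most of that sum at 72 h was Prg2, with means of 1415 CPM at 72 h and 40.5 CPM at 120 h. Epx had 14.4 and 0.205 CPM and Siglecf 152 and 76.6 CPM at these times. Ear2 had 48.7 and 49.4 CPM, with 104 CPM at 96 h, and Ccr3 0.0732 and 0.225 CPM. At 96 h, library A had 48.2 CPM of Spred1, 7.08 CPM of Etv5 and 0.398 CPM of Dusp4, and library B had 24.2, 3.25 and 0.149 CPM. In A and B of 96 h the monocyte and macrophage markers summed to 2193 and 1478 CPM. The neutrophil markers there summed to 31009 and 24505 CPM, and the eosinophil markers to 440 and 453 CPM. At 120 h, library A had 167 CPM of Dusp6 and 75.9 CPM of Dusp5, and library B had 88.0 and 48.7 CPM. Dusp4 was higher in 120 h B (2.68 CPM, against 1.40 CPM in A). Spred1 had 111 and 113 CPM in A and B of 120 h, and Etv5 had 50.9 and 52.7 CPM. In these 2 libraries the neutrophil markers summed to 24127 and 18028 CPM. The monocyte and macrophage markers summed to 4336 and 4232 CPM, and the eosinophil markers to 179 and 155 CPM. The part of these cell types in the earlier falls and in the late increases was not tested.

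With R07 the level of all 10 feedback regulators was above both withdrawal libraries at 36 and at 72 h, but not of all at 12 and 120 h. The share of all genes lying above both libraries was not counted, so this is a description of the members only. Over the 4 matched times, 4 of the 10 members were called higher with R07 than with withdrawal alone and 0 lower, where 10.5% of 13641 genes were higher and 6.09% lower. The arm term was fitted over all 4 times, so changes of the difference with time enter its error, and no test was made within a time. The members' median log2 difference was 2.30, against 0.06 over all genes.

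Dusp6 had 114, 157, 335 and 309.8 CPM with R07 at 12, 36, 72 and 120 h. In withdrawal it had 51.7 and 48.0 CPM at 12 h, 17.1 and 18.4 at 36 h, 10.9 and 11.5 at 72 h and 167 and 88.0 at 120 h. The R07 library was above both withdrawal libraries at each time, 29.9-fold above their mean at 72 h, and at 72 and 120 h it was higher than in any library of withdrawal. The log2 difference was 2.87 ± 0.57 (adjusted p = 0.011), and it was called without each library in turn, at 1.96 to 3.37.

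Spry4 had 23.4, 14.5, 41.9 and 68.4 CPM with R07 at 12, 36, 72 and 120 h. In withdrawal it had 11.7 and 12.0 CPM at 12 h, 1.25 and 1.41 at 36 h, 0.0491 and 0.0485 at 72 h and 0.0269 and 0.0671 at 120 h. With R07 it passed through a low point at 36 h and at 120 h stood above both 0 h libraries. The log2 difference was 6.94 ± 1.53 (adjusted p = 0.017). The call was lost on omitting R07 72 h, 120 h B, 72 h A or 72 h B, with adjusted p = 0.090, 0.052, 0.054 and 0.054. The difference was 4.64 on omitting R07 120 h and 8.24 on omitting R07 12 h, the extremes over the libraries left out.

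Spry1 kept a nearly level course with R07, at 10.1, 8.59, 8.92 and 12.4 CPM. In withdrawal it had 6.96 and 6.33 CPM at 12 h, 1.98 and 2.42 at 36 h, 0.466 and 0.485 at 72 h and 0.323 and 0.101 at 120 h. R07 was above both withdrawal libraries each time, and the log2 difference was 3.46 ± 0.74 (adjusted p = 0.015), not called without the R07 72 h library (adjusted p = 0.085). The difference was 2.41 without R07 120 h and 4.18 without R07 12 h, the extremes over the libraries left out.

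Etv4 had 12.5, 5.11, 7.10 and 6.35 CPM with R07, against 5.11 and 5.84 CPM at 12 h, 1.54 and 1.93 at 36 h, 0.0245 and 0 at 72 h and 0 and 0.0335 at 120 h in withdrawal. The R07 values were above both withdrawal libraries each time but below both 0 h libraries. The log2 difference was 4.91 ± 1.29 (adjusted p = 0.033), and its call was lost when any of 9 of the 12 libraries was left out. Leaving out each library in turn gave differences of 3.15 (R07 120 h omitted) to 6.17 (R07 12 h omitted). Without the R07 72 h or 120 h library the adjusted p was 0.13 and 0.061. Without the A and B libraries of withdrawal it was 0.072 and 0.086 at 120 h, 0.091 and 0.078 at 72 h and 0.058 and 0.053 at 36 h, and without 12 h A it was 0.051.

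The other 6 members were not called. Spry2 had 13.9, 14.4, 22.1 and 20.3 CPM with R07 at 12, 36, 72 and 120 h, above both withdrawal libraries each time, with a log2 difference of 1.74 ± 0.62 (adjusted p = 0.085). Dusp4 had 7.17, 3.92, 4.84 and 5.56 CPM, also above both withdrawal libraries each time, with a difference of 2.91 ± 0.90 (adjusted p = 0.056). Spred2 had 58.6, 48.9, 68.7 and 62.0 CPM, below both withdrawal libraries at 12 h and above them later, with a difference of 1.14 ± 0.35 (adjusted p = 0.056). Spred1 had 141, 105, 113 and 106 CPM with R07 and a difference of 1.14 ± 0.37 (adjusted p = 0.066). Its withdrawal level had come back by 120 h to 111 and 113 CPM.

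Some of these calls turned on 1 library. Without R07 at 12 h, Spry2, Spred1, Spred2 and Dusp4 were each called higher (adjusted p = 0.047, 0.043, 0.0096 and 0.023). Without R07 at 120 h, Spry2, Spred1, Dusp4 and Etv5 were (adjusted p = 0.036, 0.016, 0.039 and 0.044), and without R07 at 36 h Spred2 was (adjusted p = 0.044). The count of members called was 8 without R07 at 12 h, 7 without R07 at 120 h and 1 without R07 at 72 h, and over all genes it was 3790 without R07 at 12 h and 969 without R07 at 72 h, against 2262 with all libraries. It was 2 on leaving out 72 h A, 72 h B or 120 h B, with 1131, 1130 and 1277 of all genes.

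Dusp5 and Etv5 followed courses of their own under R07. Dusp5 had 12.8, 78.5, 58.5 and 41.9 CPM with R07 at 12, 36, 72 and 120 h. In withdrawal it had 34.2 and 30.6 CPM at 12 h, 15.2 and 16.2 at 36 h, 24.9 and 23.3 at 72 h and 75.9 and 48.7 at 120 h. The R07 library thus lay below both withdrawal libraries at 12 h, above them at 36 and 72 h, and below them at 120 h. The log2 difference over the 4 times was 0.67 ± 0.53 (adjusted p = 0.39), and -0.08 without the R07 36 h library.

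Etv5 had 41.7, 30.3, 22.1 and 13.1 CPM with R07, lower at each later time. In withdrawal it had 43.1 and 39.6 CPM at 12 h, 9.54 and 12.6 at 36 h, 1.28 and 1.46 at 72 h and 50.9 and 52.7 at 120 h. R07 lay between the replicates at 12 h, above both at 36 and 72 h and below both at 120 h, and the log2 difference was 1.31 ± 0.81 (adjusted p = 0.29). In all, the R07 library was above both withdrawal libraries for 7 of 10 members at 12 h, 10 at 36 h, 10 at 72 h and 7 at 120 h. It was below both for 2 at 12 h (Spred2 and Dusp5) and for 3 at 120 h (Spred1, Dusp5 and Etv5). Without the shares of all genes placed in these ways, which were not counted, these counts are a description.

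**Figure D4:**
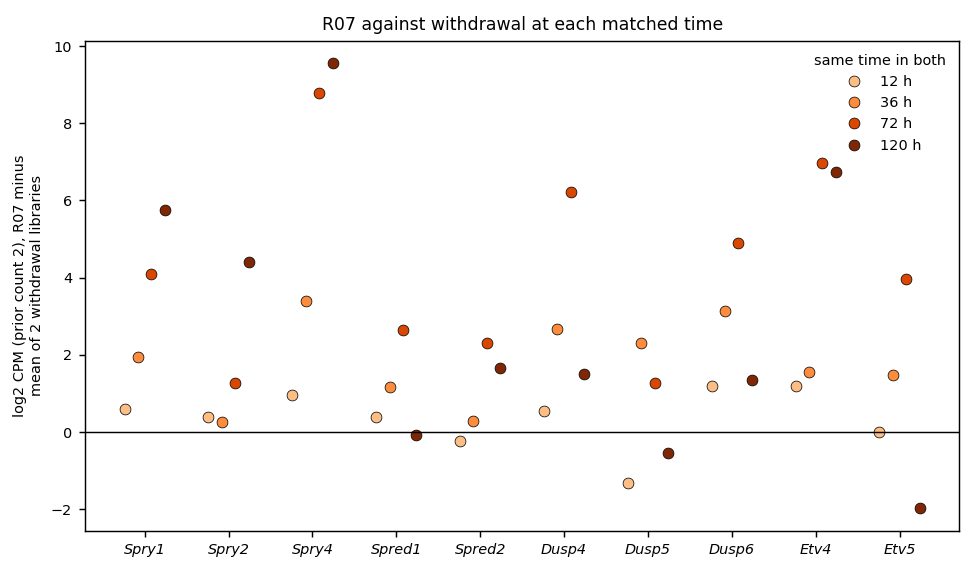
Difference in log2 CPM (prior count 2) between the R07 library and the mean of the 2 withdrawal libraries of the same hour (vertical axis) for each member (horizontal axis), 1 point per time from 12 h (light) to 120 h (dark), with a line at 0. All 10 members lie above 0 at 36 and 72 h, Spred2 and Dusp5 lie below it at 12 h, and Spred1, Dusp5 and Etv5 lie below it at 120 h. Values of Spry4, Dusp4 and Etv4 at 72 h, and of Spry4 and Etv4 at 120 h, rest on 4 or fewer withdrawal reads.

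Set against the 2 libraries at 0 h, the 4 R07 libraries taken as 1 arm gave 0 called members and 0 called genes of 13704 (0% higher and 0% lower) by edgeR. The 4 R07 times stand as replicates here, so any change with R07 time enters the spread and makes calls harder to reach. At an unadjusted p under 0.05 there were 5 members and 2868 genes. DESeq2 called 5 members, of which 1 was higher and 4 lower, and 1313 genes, and without the R07 12 h library edgeR called 5 members and 2256 genes. By edgeR the log2 changes were 1.69 ± 0.62 for Dusp5 (adjusted p = 0.19), -1.26 ± 0.39 for Etv5 (adjusted p = 0.16), -1.19 ± 0.29 for Dusp4 (adjusted p = 0.14) and -1.18 ± 0.36 for Etv4 (adjusted p = 0.15). DESeq2 called the same 4 and Spred2, with adjusted p = 0.032, 0.034, 0.0046, 0.032 and 0.043. Without the R07 12 h library, edgeR gave adjusted p = 0.010 for Dusp5, 0.024 for Etv5, 0.018 for Dusp4, 0.013 for Etv4 and 0.043 for Spred1. Spry1 lay between 8.59 and 12.4 CPM in the R07 libraries and at 10.5 and 10.4 CPM at 0 h, with a log2 change of -0.08 ± 0.24 (adjusted p = 0.87).

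The rest of the pathway was read from lists of genes grouped by their roles, with earlier results of these data known. Of 9 receptor kinases tested, 5 were higher and 4 lower at 120 h than at 0 h, with a median log2 change of 0.46 (all genes -0.06). Of all genes 39.6% were higher and 40.3% lower at 120 h, so that a list called almost throughout is near that background, here and in the lists that follow. Csf1r, the receptor for macrophage colony-stimulating factor, rose by a log2 change of 11.49 ± 0.33 (adjusted p = 3.0e-17) and Axl by 7.87 ± 0.22 (adjusted p = 2.3e-17). Kit differed by -4.48 ± 0.13 (adjusted p = 5.5e-17), and Flt3, another receptor kinase of early blood cells, by -5.30 ± 0.20 (adjusted p = 1.8e-15). Kit, Flt3 and Csf1r are also in the progenitor and monocyte marker lists given above. At 24 h Flt3 was already lower by -5.49 ± 0.20 (adjusted p = 3.8e-14) and Kit by -0.95 ± 0.11 (adjusted p = 1.8e-06).

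With R07, 3 of 8 receptor kinases tested were higher than with withdrawal and 2 lower, with a median log2 difference of -0.15 (all genes 0.06). Flt3 differed by 6.37 ± 0.54 (adjusted p = 0.00048) and Igf1r by -1.63 ± 0.13 (adjusted p = 0.00048). The Kit difference of 2.30 ± 0.64 (adjusted p = 0.038) was lost when any of 9 libraries was left out, with adjusted p up to 0.11.

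Of the 19 adaptors, RAS and RAF proteins and kinases of the RAS-ERK chain, 13 were higher and 5 lower at 120 h (median log2 change 0.96), while the members counted 1 higher and 6 lower (median -2.37). Map2k1, which phosphorylates ERK, rose by 2.37 ± 0.10 (adjusted p = 1.1e-14) and Mapk3, which encodes ERK1, by 2.23 ± 0.11 (adjusted p = 1.3e-13). With R07, 0 of the 19 were higher and 2 were lower than with withdrawal (median log2 difference -0.21): Mapk3 by -0.92 ± 0.20 (adjusted p = 0.018) and the ERK-activated kinase gene Rps6ka1 by -1.19 ± 0.26 (adjusted p = 0.016). Neither was called without the R07 72 h library (adjusted p = 0.077 and 0.072), and without the R07 12 h library 4 of the 19 were called.

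Other brakes on the pathway were mostly higher by 120 h. Of 13 tested, 10 were higher and 3 lower at 120 h (median log2 change 1.52), among them Ptpn6, the phosphatase SHP-1, with 2.45 ± 0.13 (adjusted p = 3.2e-13), and Pebp1 with -1.98 ± 0.12 (adjusted p = 3.1e-12). At 24 h 0 of the 13 were higher and 6 were lower, where 13.5% and 14.4% of all genes were, including neurofibromin, Nf1, with -0.76 ± 0.13 (adjusted p = 0.00015). With R07 (median log2 difference 0.06), 0 of 13 were called against withdrawal by edgeR, 1 by DESeq2, 5 without the R07 120 h library and 3 without the R07 36 h library.

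Of 6 other MAP kinase phosphatases, 5 were higher and 1 lower at 120 h (median log2 change 1.78). Dusp1, an immediate early gene product, rose by 4.54 ± 0.31 (adjusted p = 3.0e-11) and Dusp2 fell by 1.57 (adjusted p = 8.6e-08). Dusp1 had 23.0 and 49.6 CPM in the 2 libraries of 120 h. Dusp16, which acts on JNK, was lower at 24 h by -1.62 ± 0.26 (adjusted p = 7.0e-05) and higher at 120 h by 2.35 ± 0.24 (adjusted p = 1.5e-08). With R07 (median log2 difference 0.86), 1 of 5 was called, Dusp2, higher by 1.91 ± 0.43 (adjusted p = 0.019), a call lost without the R07 72 h library or any of the 72 and 120 h withdrawal libraries (adjusted p = 0.051 to 0.099). Without R07 at 120 h, 4 of the 5 were called.

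Spred3, the remaining Spred gene, was lower at 24 h by -1.20 ± 0.25 (adjusted p = 0.0010) and at 120 h by -1.24 ± 0.27 (adjusted p = 0.00025). With R07 it was higher than in withdrawal by 1.81 ± 0.42 (adjusted p = 0.020), a call lost without any of 6 libraries (adjusted p = 0.051 to 0.074). It was the only 1 of 3 further family members (Spry3, Spred3 and Etv1) that passed the filter.

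Of 14 other transcripts that respond to ERK, 10 were higher and 3 lower at 120 h (median log2 change 3.26). Fos rose by 6.00 ± 0.28 (adjusted p = 4.0e-14) and Egr2 by 5.52 ± 0.31 (adjusted p = 9.1e-13), both of them early transcription factor genes, while Fosl1 fell by 5.60 (adjusted p = 4.7e-12) and Myc by 4.26 (adjusted p = 4.5e-17). The 2 libraries of 120 h lay apart for the first 2 genes, with 119 and 264 CPM of Fos and 27.4 and 48.3 CPM of Egr2. With R07, 1 of 12 was higher than in withdrawal and 1 lower (median log2 difference 0.03). Epha4, an ephrin receptor, was higher by 5.44 ± 0.60 (adjusted p = 0.0013), and Ier2 was lower by -0.69 ± 0.18 (adjusted p = 0.034), a call lost when any of 9 libraries was left out (adjusted p = 0.055 to 0.068). Without any of the 12, 36 or 72 h withdrawal libraries 1 of the 12 was called.

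**Figure D5:**
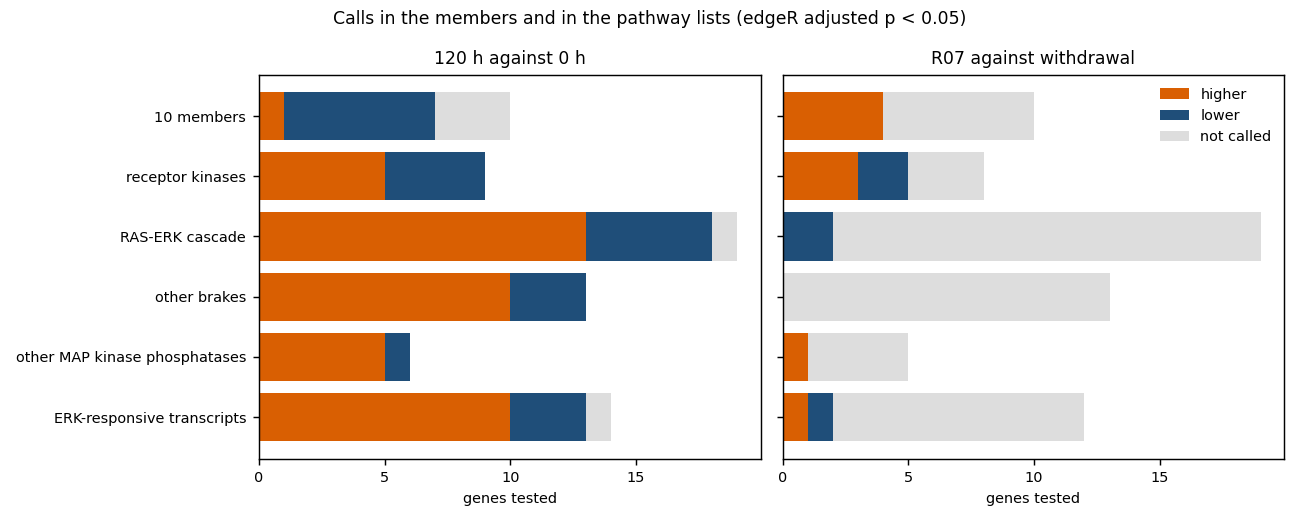
Number of genes tested (horizontal axis) in the 10 members and in 5 pathway lists (rows), split into those called higher, called lower and not called, for 120 h against 0 h (left) and R07 against withdrawal (right). At 120 h the lists hold more higher than lower calls, 13 against 5 in the RAS-ERK list and 10 against 3 among the other brakes, while the members hold 1 against 6.

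Genes with a like course were sought among 5527 genes, by Pearson's r over the mean log2 CPM of the 10 withdrawal times. The genes compared share the same libraries and 1 broad change of cell state, so r is a description. Spred1 and Etv5 were each other's nearest gene of all candidates (r = 0.995), and Spred1 was nearest to Dusp4 (r = 0.975). Such company was rare, with 14 genes at or above r = 0.95 for Spred1, 13 for Etv5 and 15 for Dusp4. Dusp6 had 1 such gene, Sdc1 (r = 0.964), and Dusp5 had 0, its nearest being Itgb5 (r = 0.928). The other members had more, with 417 genes at or above r = 0.95 for Spry2 (nearest Fancm, r = 0.996), 377 for Spry1 (nearest Zbtb41, r = 0.996), 223 for Spred2 (nearest Jmjd4, r = 0.991) and 177 for Etv4 (nearest Bod1, r = 0.992). Spry4 had 68, the nearest being Sigirr (r = 0.992). Spry1, Spry4, Dusp4 and Etv4 could not be found as nearest genes, since their mean log2 CPM was under 3. Taken as pairs of members, Etv4 had r = 0.981 with Spry4, 0.980 with Spred2 and 0.978 with Spry1. Other pairs had low or negative r, such as -0.024 for Spry2 and Spred1, down to -0.710 for Spry2 and Dusp5.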

How the data were processed

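RNA was selected with oligo-dT and sequenced from a stranded kit, per the labels' protocols. The authors' processing named STAR 2.4.2a, Picard and mm10, per the submitters' processing notes. The counting program and its strand setting are not given in the sources used here. The deposited values are whole-number counts per gene, not normalized. Of 45323 lines 4 name no gene and stayed out of library sizes and tests: multimapping (6.23 to 8.72% of each library's reads), no feature (3.88 to 6.48%), unmapped (1.53 to 2.29%) and ambiguous (1.08 to 1.25%). Gene positions are from GENCODE M21 (GRCm38) and promoters from RefSeq (GRCm38.p6).

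Counts were tested with edgeR 4.0.16 (R 4.3.3): TMM scaling, filterByExpr and quasi-likelihood F tests, with p-values adjusted by Benjamini-Hochberg across every tested gene. One fit took the 20 withdrawal libraries, each time being a level (14615 genes). R07 was compared with the 8 withdrawal libraries of its 4 times, time entering as a factor (13641 genes), and with 0 h as 1 arm (13704 genes). Log2 CPM used a prior count of 2. The standard error of a change is its size over the root of F. Against 0 h, a group with 3 or fewer reads got an exact interval in place of a fold. Fitted changes over such groups still enter the calls, the medians, the steps between times and the R07 differences. The scripts were checked on simulated counts. Members and lists were chosen with earlier results of these data known. Named pathway genes were the up to 2 highest and 2 lowest called genes per list at 4, 24 and 120 h and with R07, whose mean log2 CPM reached 1, and of these the text gives some. Nearest genes were sought among tested genes whose mean log2 CPM reached 3 and whose range reached 1, with no clone or predicted-gene name. The alternatives were RLE, no filter, DESeq2 1.42.0, a replicate block, other sets of libraries, another source of spread and leaving out each library.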

Additional observations from a re-analysis of the deposited data

Results flagged for a closer look

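R07 and withdrawal, the 2 arms at the same 4 times, differed in 4 members by the test of that difference in edgeR. The log2 difference between R07 and withdrawal was 3.46 for Spry1, 6.94 for Spry4, 2.87 for Dusp6 and 4.91 for Etv4, each with R07 above both withdrawal libraries at 4 of 4 times. The adjusted p-values were 0.015, 0.017, 0.011 and 0.033. With 2 libraries a withdrawal time and 1 an R07 time, single outlying libraries were not looked for.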

How the results depend on the processing

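For members and named genes, 0 results called by edgeR changed direction under any alternative, and 133 of their alternative values lost the call, 130 of them when a library was left out. The counts of members against 0 h kept within 1.5 times under every alternative. The others moved as follows. Without the filter on low counts, members called were 5 from 8 to 12 h (2 with it) and 8 from 24 to 36 h (5 with it). With only the 4 libraries compared they were 5 and 9. DESeq2 called 8 members for R07 against withdrawal (4 by edgeR) and 5 for R07 against 0 h (0 by edgeR). Taking the spread from the withdrawal replicates gave 10 and 7, and only 36, 72 and 120 h gave 5 for R07 against 0 h. Leaving out each library gave 2 to 5 members from 4 to 8 h, 2 to 4 from 8 to 12 h, 1 to 7 from 24 to 36 h, 3 to 6 from 36 to 48 h, 1 to 8 for R07 against withdrawal and 0 to 5 for R07 against 0 h. The causes were not tested.

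Direction changed for uncalled values near 0. At 4 h Spry1 and Spred1 (0.01 and 0.01) were -0.014 and -0.018 with DESeq2, -0.014 and -0.018 with RLE normalization, and -0.0014 and -0.0048 without the filter, and Spry4 from 96 to 120 h (0.02) was -0.012 without the filter. Leaving out each library gave, at 4 h, -0.062 to 0.086 for Spry1, -0.13 to 0.14 for Spred1, -0.071 to 0.034 for Spred2 and -0.23 to 0.029 for Etv4. It gave -0.034 to 0.033 for Spred2 from 8 to 12 h, and from 72 to 96 h -0.040 to 0.33 for Dusp5, -0.25 to 0.10 for Spred2 and -0.61 to 0.29 for Spry4. From 96 to 120 h it gave -1.59 to 0.065 for Spry1, -0.66 to 0.58 for Spry4 and -3.52 to 0.18 for Etv4. It gave -0.78 to 0.14 for Dusp6 at 120 h and -0.080 to 1.20 for Dusp5 with R07 against withdrawal.

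The letters A and B are not in the labels, so whether they pair libraries across times is not known. A minus B deviations of 2 times correlated from -0.16 to 0.21 (median 0.014, above 0.1 in 7 of 45 pairs). Such weak correlations cannot decide it. A replicate block on the letters moved 3 Dusp5 changes to called, 8 h minus 4 h (0.41, adjusted p = 0.042), 12 h minus 8 h (-0.45, 0.031) and 24 h minus 0 h (0.39, 0.037), and ended no call. Of the other lists, for R07 against withdrawal DESeq2 called 6 ERK-responsive, 5 RAS-ERK and 2 further phosphatase genes. Counts over all genes moved more: R07 against withdrawal gave 2262 genes by edgeR, 3964 by DESeq2, 9718 with the spread of the withdrawal replicates and 969 to 3790 leaving out a library, and R07 against 0 h gave 0 by edgeR, 1313 by DESeq2, 31 without the filter, 6925 with that spread and 2256 with 36, 72 and 120 h only. From 24 to 36 h there were 1050 genes, and 2750 with only the 4 libraries. At 4 h there were 1717, and 815 and 861 without 0 h library B and 4 h library A. Depth limits Spry4, Etv4 and Dusp4 after 48 h, where fitted folds rest on single reads.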
